A study of Mus musculus with 14 samples.

Results

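Imprinted genes are expressed mainly from the copy inherited from one parent. A group of 10 of them that act on growth was examined in the mouse esophagus: Igf2, Dlk1, Grb10, Plagl1, Peg3, Cdkn1c, H19, Meg3, Rian and Mirg. The genes were picked by symbol, and all 10 had a row among the 55291 gene rows of each count file. Bulk RNA-Seq was available for 14 samples from 9 C57BL/6 mice, each sample from 1 mouse. Epithelium was sequenced for 5 aged mice (O1, O2, O3, OF5 and OM8) and 4 young mice (Y1, Y3, YF5 and YM4). Stroma was sequenced for 3 aged (O1, O2, O3) and 2 young (Y1, Y3) animals of this set. The paper describes pulling the muscle layers off the esophagus, which left sheets enriched for epithelium. The labels put aged mice at 18 months or more and young mice at 4 months or less, and name no treatment or transgene in any group.

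Many imprinted genes set the balance between growth and restraint. Igf2 is a secreted growth factor, Grb10 and Cdkn1c hold back insulin-type signalling and the cell cycle, and Plagl1 and Peg3 are zinc finger transcription factors. H19 is a long non-coding RNA beside Igf2, and Dlk1, Meg3, Rian and Mirg lie in a single imprinted domain where Dlk1 comes from the paternal and the other RNAs from the maternal chromosome. Several of these genes are known for high expression in the embryo, a fall after birth, and use in skeletal muscle and its stem cells. The mouse esophagus is wrapped in skeletal muscle, so its stroma holds muscle fibres together with fibroblasts, vessels, nerve and fat.

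Total counts ran from 8217516 to 21867101 per sample. The 4 mice with epithelium only (OF5, OM8, YF5 and YM4) gave the shallowest samples, in which 1 ribosomal RNA row took 63.9% to 73.9% of the counts. This row took 10.4% to 23.3% in the other epithelial samples and 1.47% to 1.88% in stroma, so its share differed between the layers. Levels are given as normalized counts, which are counts scaled to sequencing depth (CPM) on a library size adjusted by the TMM method, and 3 counts corresponded to between 0.0872 and 1.25 CPM. Summed over 5 superficial keratinocyte markers, epithelium held 17115 to 53227 CPM and stroma 35.1 to 433, and summed over 5 skeletal muscle fibre markers, stroma held 30283 to 57536 CPM and epithelium 8.96 to 1168. The summed fibroblast markers did not separate the layers, with 223.9 to 518 CPM in epithelium and 314 to 789 in stroma. All 5 had a log2 fold change of stroma over epithelium above 0. For 2 of them, Col3a1 (0.86, SE 0.23) and Pdgfra (1.05, SE 0.21), the edgeR adjusted p-value was below 0.05. Smooth muscle markers also overlapped, with sums of 333 to 835 CPM in epithelium and 303 to 2051 in stroma. Keratinocyte and skeletal muscle markers thus followed the layers of the labels, and fibroblast and smooth muscle markers were measured in both. In bulk samples, fewer cells of a type and less RNA per cell cannot be told apart.

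The long non-coding members are also hosts of microRNAs. In the GENCODE M21 annotation of GRCm38, 1 microRNA gene lies in H19, 1 in Igf2, 2 in Meg3, 4 in Rian and 14 in Mirg, all on the strand of the host. RefSeq held 39 mature sequences for these loci. They carry 38 different seeds, the bases 2 to 8 that pair with a target. The following are shown because miR-675 comes from an exon of H19, the most abundant member per length, because miR-483 comes from an intron of Igf2, and because miR-453 and miR-496a-5p, both in introns of Mirg, are the pair with the same seed. Seeds are in capitals.
mmu-miR-675-5p (chr7:142577112-142577133, minus strand, GRCm38.p6): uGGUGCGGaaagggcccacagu
mmu-miR-675-3p (chr7:142577078-142577099, minus strand): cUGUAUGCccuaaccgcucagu
mmu-miR-483-5p (chr7:142654968-142654989, minus strand): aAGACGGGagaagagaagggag
mmu-miR-483-3p (chr7:142654932-142654952, minus strand): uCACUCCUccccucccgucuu
mmu-miR-453 (chr12:109735669-109735692, plus strand): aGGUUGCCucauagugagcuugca
mmu-miR-496a-5p (chr12:109739132-109739152, plus strand): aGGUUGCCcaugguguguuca
The libraries were made from polyadenylated RNA, so the rows of microRNA genes do not measure mature microRNAs. The rows of Mir675 and Mir483 held 0 counts over all 14 samples. None of 12 listed microRNA rows, 5 of them inside a member and the others elsewhere in the Dlk1 domain, passed the filter on low counts in any comparison.

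RefSeq also gave promoter windows of 300 bases, most of them upstream of a start site, for 8 of the 10 members, H19 and Cdkn1c being the others. The 2 windows below are shown because Plagl1 was the member higher in epithelium and Peg3 one of those higher in stroma without overlap. In the Plagl1 window the 26 CpG dinucleotides are in capitals. In the Peg3 window the capitals mark GGGGCCCC, the core of the motif bound by Plagl1.
Plagl1 (chr10:13090582-13090881, plus strand, GRCm38.p6): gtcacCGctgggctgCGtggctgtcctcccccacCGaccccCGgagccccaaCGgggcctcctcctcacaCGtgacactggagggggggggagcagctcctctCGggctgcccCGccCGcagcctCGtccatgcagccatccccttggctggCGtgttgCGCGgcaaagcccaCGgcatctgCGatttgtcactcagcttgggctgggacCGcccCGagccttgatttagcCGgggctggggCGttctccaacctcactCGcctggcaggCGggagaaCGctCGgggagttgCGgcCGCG
Peg3 (chr7:6730370-6730669, minus strand, GRCm38.p6): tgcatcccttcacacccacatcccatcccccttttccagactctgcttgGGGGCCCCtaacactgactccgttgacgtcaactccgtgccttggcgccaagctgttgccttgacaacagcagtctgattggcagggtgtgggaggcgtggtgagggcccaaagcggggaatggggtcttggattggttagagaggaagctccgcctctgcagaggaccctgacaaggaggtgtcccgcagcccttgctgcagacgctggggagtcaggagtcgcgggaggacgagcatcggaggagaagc
GGGGCCCC, which reads the same on both strands, was found in 1 of the 13 windows of the members and in 1.08% of 32851 RefSeq promoter windows of the same length. The median window among all promoters held 7.0 CpG dinucleotides, the first Grb10 window held 45 and the Rian window held 0. These matches describe the letters of the windows.

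Stroma and epithelium were compared over all 14 samples. H19, Peg3, Grb10, Rian, Igf2, Cdkn1c and Meg3 were higher in stroma, and Plagl1 was higher in epithelium. Of the 10 members 8 passed the filter on low counts. Dlk1 and Mirg did not. Among the 16791 genes tested with edgeR, 30.1% were called higher in stroma and 26.1% higher in epithelium with a Benjamini-Hochberg adjusted p-value below 0.05, and 7 members were called in the first direction and 1 in the second. Igf2, Cdkn1c and Rian reached the level asked by the filter in fewer epithelial samples than the filter requires and so passed through their stromal counts. The count of members called is therefore a description. Every stromal sample was above every epithelial sample for 3 of the 8 members tested (H19, Grb10 and Peg3) against 16.9% of all genes, and every stromal sample was below for Plagl1 against 14.4%.

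**Figure D1:**
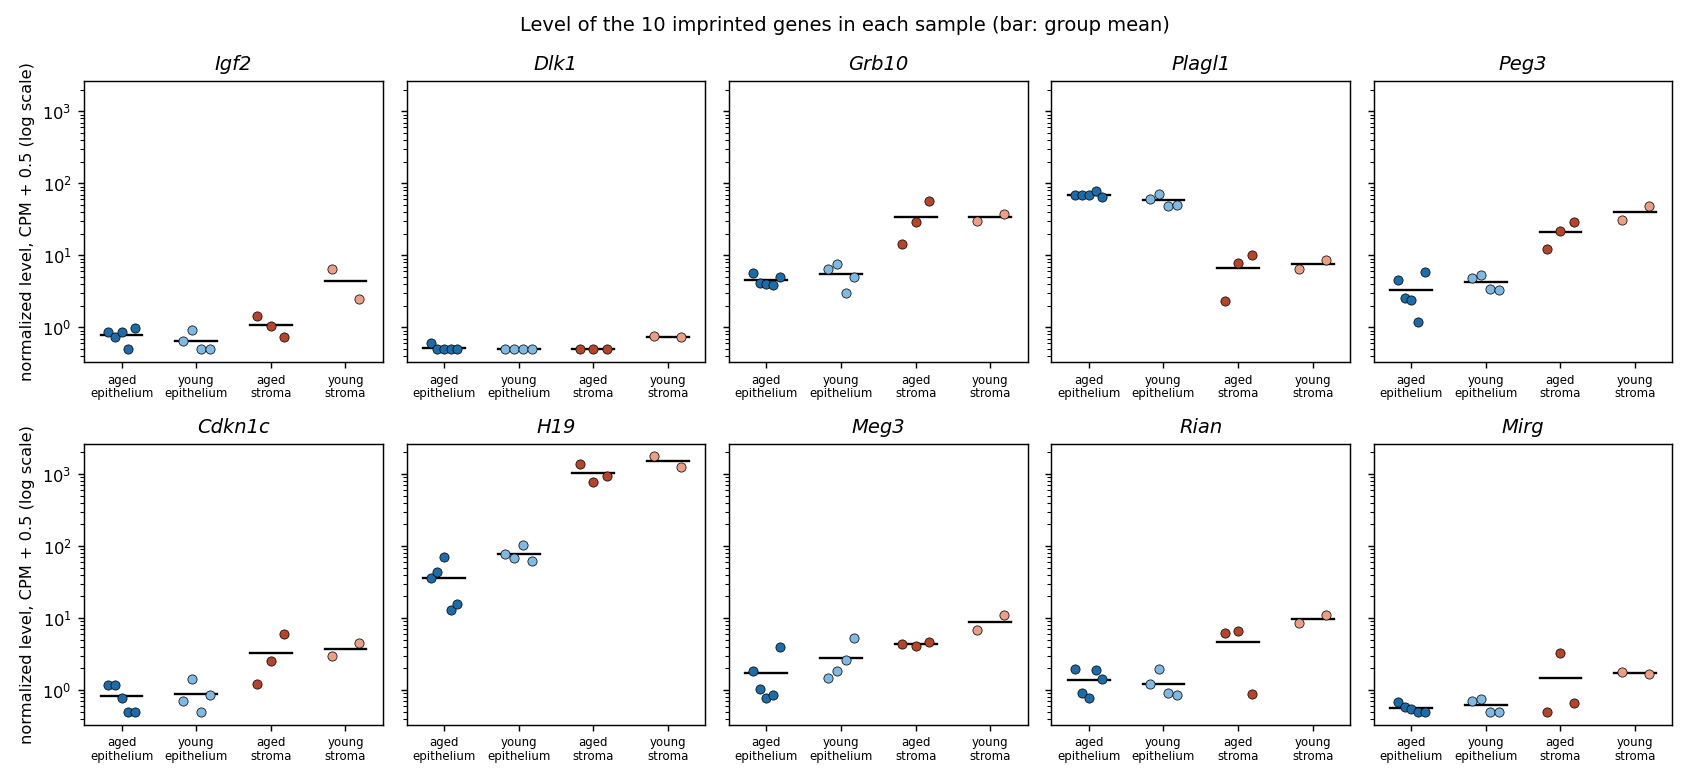
Level of each of the 10 genes in each of the 14 samples, as CPM + 0.5 on a log axis shared by all panels, with points for samples and bars for group means. H19 sits between 768 and 1754 CPM in stroma and at no more than 104.6 in epithelium, Plagl1 shows the opposite order, and Dlk1 lies near the floor in every sample.

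H19 (chr7:142575529-142578143, minus strand, GRCm38), the most abundant member per length in both layers, had the largest difference among the members. In epithelium it ranged from 12.4 CPM in OF5 to 104.6 in YF5 with a median of 62.3 (n = 9). In stroma it was at 1400 CPM in O1, 768 in O2, 936 in O3, 1754 in Y1 and 1237 in Y3. The layers did not overlap, and O2 was the lowest and Y1 the highest stromal sample. The log2 fold change of stroma over epithelium was 4.49 (SE 0.40, edgeR adjusted p = 1.23e-08). Within the 5 mice with both layers, stroma held 13.4 to 39.3 times the epithelial level. The mean level of H19 in epithelium was 4.44% of that in stroma, the muscle genes Acta1, Ckm and Ttn were at 1.02%, 1.22% and 0.597%, and the fibroblast genes Col1a1, Col3a1 and Pdgfra at 84.4%, 55.1% and 47.7%. The part of muscle or fibroblast RNA in the epithelial level of H19 was not tested.

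Grb10 (chr11:11930508-12038683, minus strand), an adaptor that dampens signalling of the insulin and IGF receptors, was also higher in stroma. Epithelial levels ran from 2.50 to 7.20 CPM with a median of 4.48. Stromal levels were 13.9 CPM in O1, 29.0 in O2, 57.1 in O3, 29.9 in Y1 and 36.7 in Y3, so that O1 was lowest and O3 highest with no overlap of the layers. Grb10 had a log2 fold change of 2.83 (SE 0.27, edgeR adjusted p = 1.79e-08).

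Peg3 (chr7:6703892-6730431, minus strand), a large zinc finger protein known from muscle stem cells and from cell death, was at 0.689 to 5.42 CPM in epithelium with a median of 2.92. In stroma it was at 11.7 CPM in O1, 21.5 in O2, 29.0 in O3, 30.2 in Y1 and 47.8 in Y3. All 5 stromal samples again lay above all 9 epithelial ones. Peg3 had a log2 fold change of 3.07 (SE 0.33, edgeR adjusted p = 1.27e-07), and O1 was the lowest stromal sample as for Grb10.

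Plagl1 (chr10:13060504-13131694, plus strand), a zinc finger factor that restrains proliferation and is known to act on other imprinted genes, was the exception. It was at 48.8 to 76.8 CPM in epithelium with a median of 67.7. In stroma it fell to 1.81 CPM in O1, 7.40 in O2, 9.68 in O3, 5.93 in Y1 and 8.08 in Y3. Epithelial samples varied little among themselves (mean 64.3 CPM, SD 9.69, n = 9), and no stromal sample came near them. The log2 fold change of stroma over epithelium was -3.28 (SE 0.29, edgeR adjusted p = 5.72e-09). Within the 5 mice, the stromal level was 0.0260 to 0.139 of the epithelial level.

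Igf2 (chr7:142650766-142666816, minus strand) was low in both layers. In epithelium it ranged from 0 to 0.471 CPM with a median of 0.242, and the 3 samples at 0 counts (OF5, YF5 and YM4) allow up to 1.03, 1.25 and 1.04 CPM. In stroma it was at 0.933 CPM in O1, 0.534 in O2, 0.230 in O3, 5.88 in Y1 and 2.01 in Y3. O3 lay within the epithelial range and both young samples lay well above it. The log2 fold change was 2.78 (SE 0.71, edgeR adjusted p = 0.00235). It rested on mouse Y1: without it the log2 fold change was 1.66 (SE 0.77, edgeR adjusted p = 0.0825), and with mouse as a replicate block in the 5 mice with both layers it was 1.75 (SE 0.93, edgeR adjusted p = 0.146). The exons of another annotated gene, Gm49394, share 62.8% of the exonic bases of Igf2 on the same strand, and its row held 0 counts in all 14 samples. Whether reads in the shared bases were credited to Igf2 or left out is not given in the sources used here, so its level may be understated.

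Cdkn1c (chr7:143458339-143461050, minus strand), the inhibitor of cyclin-dependent kinases also called p57, was at 0 to 0.949 CPM in epithelium with a median of 0.290. In stroma it was at 0.700 CPM in O1, 2.05 in O2, 5.55 in O3, 2.48 in Y1 and 3.98 in Y3. Only O1 fell into the epithelial range. For Cdkn1c the log2 fold change was 2.73 (SE 0.60, edgeR adjusted p = 6.13e-04).

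The maternally expressed RNAs of the Dlk1 domain were higher in stroma with more overlap. Meg3 (chr12:109541001-109571726, plus strand) was at 0.290 to 4.85 CPM in epithelium with a median of 1.34, and in stroma at 3.85 CPM in O1, 3.57 in O2, 4.13 in O3, 6.40 in Y1 and 10.4 in Y3. The epithelial samples YM4 and OM8 (3.54 CPM) reached the level of aged stroma or came close to it. Meg3 had a log2 fold change of 1.94 (SE 0.51, edgeR adjusted p = 0.00314). Rian (chr12:109603940-109661716, plus strand), which hosts small nucleolar RNAs, was at 0.290 to 1.48 CPM in epithelium with a median of 0.708, and in stroma at 5.72 CPM in O1, 6.20 in O2, 0.383 in O3, 8.05 in Y1 and 10.5 in Y3. O3 alone lay within the epithelial range. Rian had a log2 fold change of 2.85 (SE 0.53, edgeR adjusted p = 1.29e-04).

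Dlk1 and Mirg stayed near the detection limit. Dlk1 (chr12:109452823-109463336, plus strand), a membrane protein of the Notch ligand family known from fetal tissue and fat precursors, had 4 counts in O1 epithelium, 5 in Y1 stroma, 6 in Y3 stroma and 0 in the other 11 samples. Mirg (chr12:109729764-109749460, plus strand) had 0 to 8 counts per epithelial sample. In stroma Mirg had 0 counts in O1, 68 in O2, 4 in O3, 25 in Y1 and 30 in Y3, so that O2 was highest and O1 allows up to 0.175 CPM. Neither gene was tested in this comparison.

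**Figure D2:**
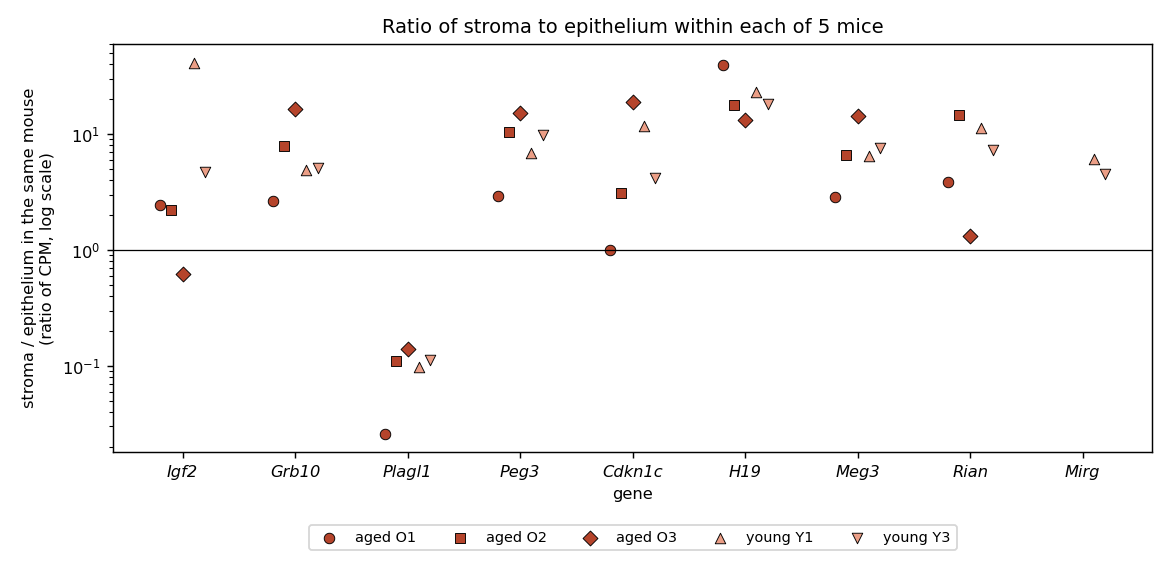
Ratio of the stromal to the epithelial level (CPM, log axis) within each of the 5 mice with both layers, for members with more than 3 counts in both samples of the mouse. H19 lies between 13.4 and 39.3 in all 5 mice and Plagl1 below 1 in all 5, while Igf2 spreads from 0.616 in O3 to 41.5 in Y1.

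The median ratio of stroma to epithelium within a mouse was 18.3 for H19, 9.80 for Peg3, 7.28 for Rian, 6.56 for Meg3, 5.10 for Grb10, 4.19 for Cdkn1c and 2.47 for Igf2. Cdkn1c had a ratio of 1.004 in O1, Rian 1.32 in O3, and Igf2 0.616 in O3. In the other mice these 3 genes were higher in stroma.

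Compared per kb of summed exon length, H19 led the members in stroma at 496 CPM per kb (SD 158, range 312 to 713, n = 5). Grb10 followed at 3.67 CPM per kb (range 1.53 to 6.28), Peg3 at 2.10 (0.876 to 3.58), Cdkn1c at 1.45 (0.343 to 2.72) and Plagl1 at 0.841 (0.231 to 1.24), and the ranges of these neighbours overlapped. Rian, Igf2 and Meg3 came next at 0.338, 0.335 and 0.314 CPM per kb and did not differ beyond their spread. In epithelium H19 led at 22.0 CPM per kb (range 5.04 to 42.5, n = 9) and Plagl1 followed at 8.23 (6.24 to 9.83), ranges that overlapped. Grb10 was next at 0.496 CPM per kb (0.275 to 0.792), below every value of Plagl1. Plagl1 thus ranked 2 of 10 in epithelium and 5 of 10 in stroma.

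The stromal samples differed in make-up beside these levels. O1 had the highest sum of skeletal muscle fibre markers (57536 CPM) and the lowest sums of fibroblast (314 CPM) and endothelial markers (34.4 CPM), and it was the lowest stromal sample for Grb10, Peg3, Cdkn1c and Plagl1 but second to Y1 for H19. O3 had the lowest muscle sum (30283 CPM) and the highest fibroblast (789 CPM), endothelial (99.8 CPM) and leukocyte sums (234.5 CPM), and it was the highest for Grb10, Cdkn1c and Plagl1 but the lowest for Igf2 and Rian. The part of this make-up in the levels of the members was not tested.

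The neighbours in the Dlk1 domain did not keep the same proportions in each stromal sample. Meg3 and Rian have nearly equal exon lengths of 18.1 and 18.2 kb. The ratio of Rian to Meg3 counts was 1.48 in O1, 1.74 in O2, 1.26 in Y1 and 1.004 in Y3, and 0.0926 in O3, where Rian had 10 counts and Meg3 had 108. The ratio of Mirg to Meg3 counts was 0.782 in O2, 0.202 in Y1, 0.113 in Y3 and 0.0370 in O3, and Mirg had 0 counts in O1 beside 98 counts of Rian. O3 was low for both downstream RNAs while its Meg3 level, 4.13 CPM, was the highest of the 3 aged samples. In the epithelium of the same mouse, O3 had 7 counts of each of Meg3 and Rian. These ratios come from single libraries and were not tested.

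**Figure D3:**
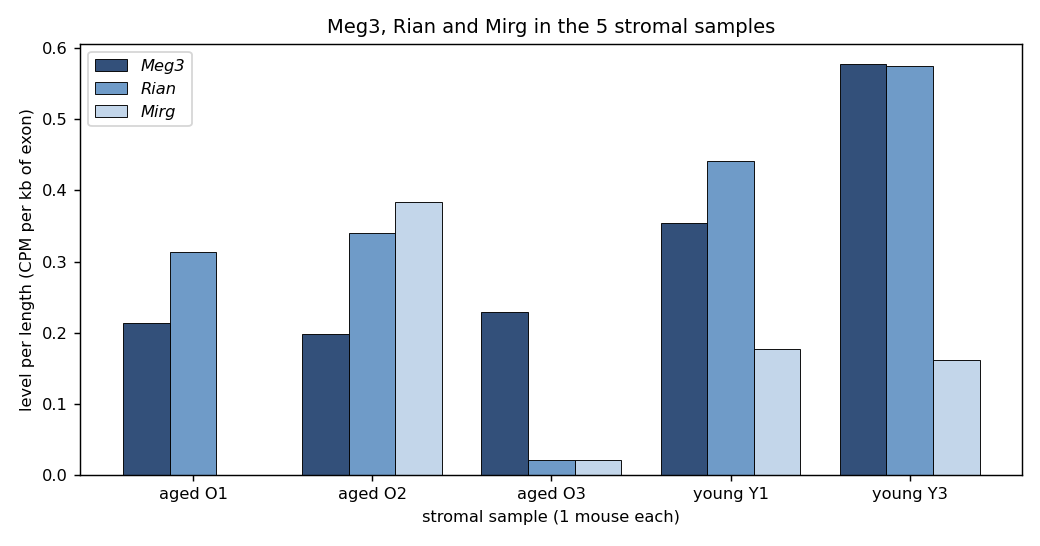
Meg3, Rian and Mirg in each stromal sample, as CPM per kb of exon, with 1 bar for each gene and sample. Rian is close to or above Meg3 in 4 samples and far below it in O3, and Mirg is highest in O2 and at 0 in O1.

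A list of 54 other imprinted genes was set beside the members. Of these 52 had a row and 39 were tested between the layers, of which 25 were higher in stroma, 5 were higher in epithelium and 9 were not called. Of the 39 tested, 13 reached the level asked by the filter in too few epithelial samples to pass without stromal counts, and 12 of these 13 were called higher in stroma, so the count and the median log2 fold change of 1.21, beside 0.05 for all genes tested, are a description. Of the other 26 genes 13 were higher in stroma and 5 were higher in epithelium. Where every stromal sample had 10 counts or more, the largest differences were those of Zdbf2 (5.68, SE 0.41), Slc38a4, an amino acid transporter (4.83, SE 0.45), Asb4 (4.62, SE 0.71), Nnat (4.15, SE 0.66), Slc22a3, a transporter of organic cations (3.42, SE 0.43), and Snrpn, a splicing protein (3.33, SE 0.55), with edgeR adjusted p-values from 3.15e-10 to 3.21e-05. In the other direction, where every epithelial sample had 10 counts or more, stood Copg2 (-1.87, SE 0.18), Cobl (-1.54, SE 0.20) and Inpp5f (-0.78, SE 0.19). Their edgeR adjusted p-values were 2.29e-08, 1.38e-06 and 0.00157. Phlda2 (-4.14, SE 0.83) and Slc22a18 (-1.69, SE 0.57) were also called higher in epithelium (edgeR adjusted p = 2.63e-04 and 0.0157). Their lowest epithelial counts were 1 and 3, which put them outside this condition. Zdbf2 had a mean of 0.250 CPM in epithelium and 16.9 in stroma. Zdbf2, Asb4, Nnat and Snrpn had 3 counts or fewer in 5, 8, 5 and 5 of the 9 epithelial samples. These genes thus passed the filter only with stromal counts, and their differences are a description. Slc38a4 and Slc22a3 had median epithelial counts of 6 and 10.

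Several of these genes share a domain with a member. In the Peg3 domain 2 of 4 listed genes, Usp29 and Zim1, were tested and both were higher in stroma like Peg3. They had 3 counts or fewer in 7 and 5 of the 9 epithelial samples. Both thus passed the filter only with stromal counts, and their shared direction is a description. Of the genes around Igf2 and Cdkn1c on distal chromosome 7, 7 of 9 were tested, 3 were higher in stroma and 2 were higher in epithelium, so that the direction was not shared along the chromosome. In the Grb10 domain Cobl was higher in epithelium (mean 151.6 CPM against 52.4 in stroma), opposite to Grb10. In the Dlk1 domain the remaining tested gene, Rtl1, was higher in stroma with a log2 fold change of 1.92 (SE 0.75, edgeR adjusted p = 0.0341). Rtl1 had 3 counts or fewer in 6 of the 9 epithelial samples and likewise passed the filter only with stromal counts.

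**Figure D4:**
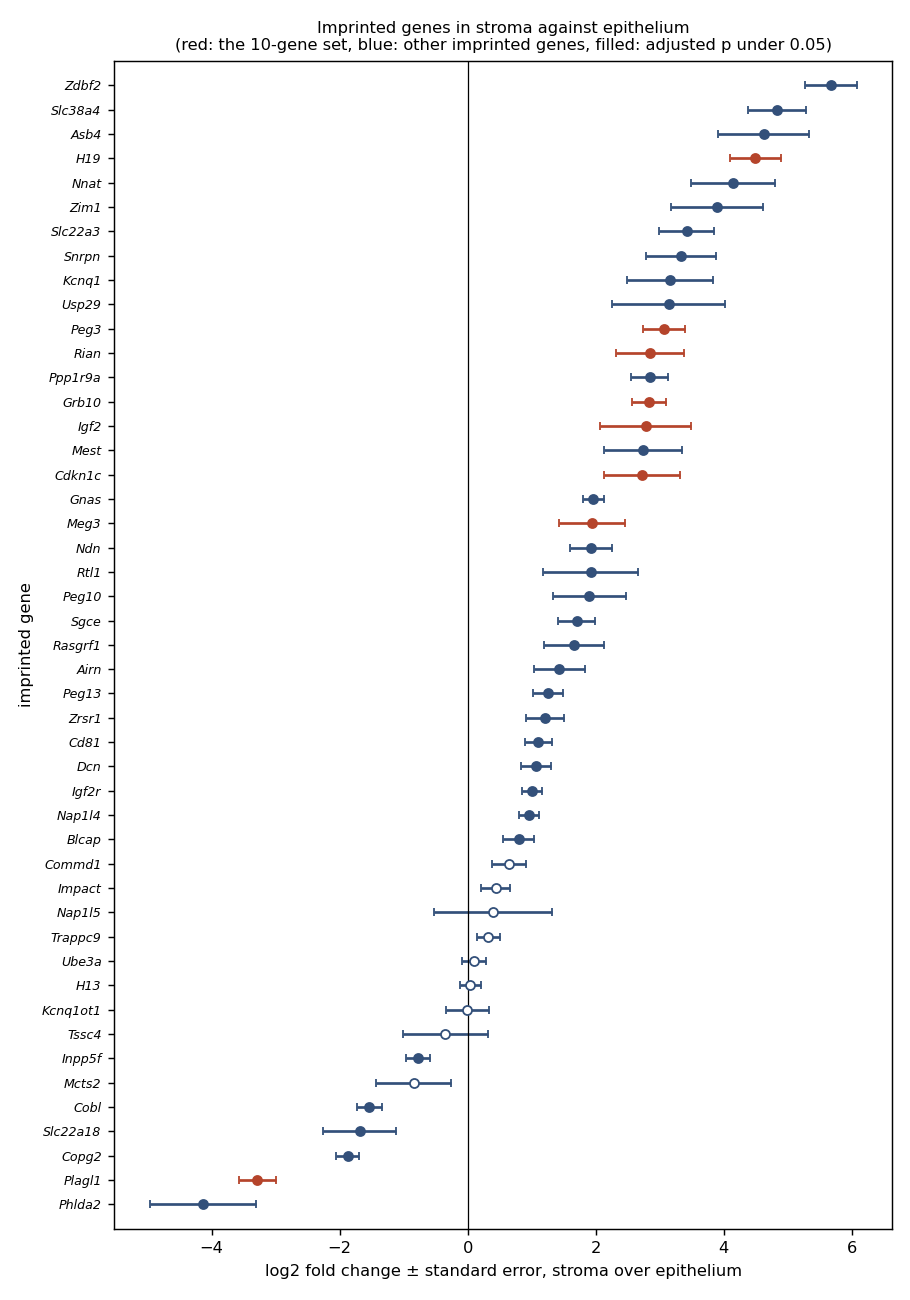
Log2 fold change of stroma over epithelium with its standard error for the 8 members tested (red) and 39 other imprinted genes tested (blue), in order of size, with filled points for an adjusted p-value under 0.05. Filled points lie to the right for 7 of 8 members and 25 of 30 other genes, and Plagl1 is the second lowest of all. Among all genes tested, 30.1% were called higher in stroma and 26.1% higher in epithelium. Of the filled points on the right, Igf2, Cdkn1c, Rian and 12 other genes passed the filter only with stromal counts, so the counts are a description.

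Partners and relatives of the members were followed in a list of 13 genes, all tested, of which 6 were higher in stroma, 3 of them having passed the filter only with stromal counts, and 4 were higher in epithelium. The receptors of this list that bind Igf2 were higher in stroma, Igf1r by a log2 fold change of 1.19 (SE 0.18) and Insr by 0.999 (SE 0.13). The related ligand Igf1 was higher in stroma too (1.93, SE 0.32). Among the relatives of Grb10, Grb14 was higher in stroma (5.41, SE 0.38) and Grb7 in epithelium (-4.12, SE 0.33). Igf2bp1, a binder of Igf2 mRNA, was higher in stroma (2.86, SE 0.66). Grb14 and Igf2bp1 were among the genes that passed the filter only with stromal counts. Cdkn1a, a relative of Cdkn1c, and Plagl2, a relative of Plagl1, were higher in epithelium (-1.10, SE 0.20 and -1.09, SE 0.23). For these 8 genes the edgeR adjusted p-values ran from 3.78e-10 to 9.32e-04. Grb10 was thus in the same layer as Grb14 and in the layer opposite to Grb7. Cdkn1c, which passed the filter only with stromal counts, was opposite to Cdkn1a. Another relative, Cdkn1b, was not called (-0.16, SE 0.14, edgeR adjusted p = 0.337). Plagl1 and Plagl2 were in the same layer, and their relative Plag1 was not called (0.096, SE 0.60, edgeR adjusted p = 0.903).

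**Figure D5:**
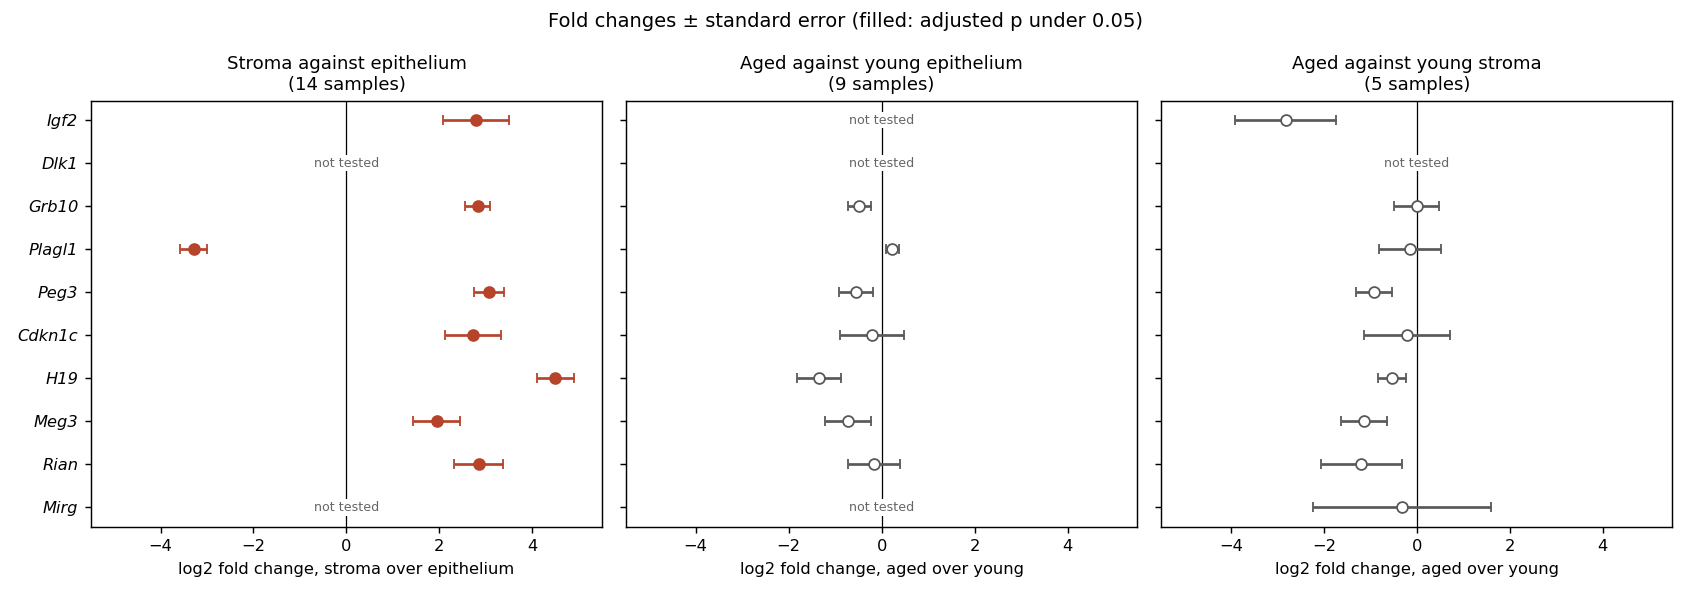
Log2 fold change with its standard error for each member in 3 comparisons, with filled points for an adjusted p-value under 0.05. The layer panel holds 8 filled points, and in the 2 age panels no point is filled and most lie at or below 0.

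Aged and young stroma were compared over 3 and 2 samples. No member was called by edgeR, nor was any other gene among 21323 tested (0%). At an unadjusted p under 0.05 there were 776 genes, 3 of them members, and DESeq2 called 2 genes, neither of them a member. Of the 9 members tested 8 had a log2 fold change below 0. Every aged sample lay below every young sample for 4 of these 9 (Igf2, Peg3, Meg3 and Rian) against 14% of all genes, and every aged sample lay above for 0 of 9 against 6.57%.

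Igf2 had the largest difference, with aged samples at 0.933, 0.534 and 0.230 CPM and young samples at 5.88 and 2.01. Its log2 fold change was -2.81 (SE 1.09, edgeR unadjusted p = 0.0275, adjusted p = 1.0). The aged values rested on 6 to 16 counts, and the lower young value (51 counts) was closer to the aged samples than to the other young one. Meg3 was at 3.57 to 4.13 CPM in aged and 6.40 and 10.4 in young stroma, a log2 fold change of -1.14 (SE 0.50, edgeR unadjusted p = 0.0484, adjusted p = 1.0). Peg3 was at 11.7 to 29.0 CPM in aged and 30.2 and 47.8 in young stroma, a log2 fold change of -0.91 (SE 0.39, edgeR unadjusted p = 0.0410, adjusted p = 1.0). The gap between the groups was narrow for Peg3, 29.0 against 30.2 CPM.

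None of the other members had an unadjusted p under 0.05. Their log2 fold changes were -1.19 (SE 0.86) for Rian, -0.54 (SE 0.30) for H19, -0.32 (SE 1.91) for Mirg, -0.22 (SE 0.92) for Cdkn1c and -0.15 (SE 0.66) for Plagl1. Grb10 had the same mean in both groups, 33.3 CPM (SD 21.9, n = 3, and SD 4.77, n = 2). Dlk1, which was not tested, had 0 counts in all 3 aged samples and 5 and 6 counts in the young ones.

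Some marker sums separated aged from young stroma in the same samples, and others did not. No test was run on the sums. Among all genes tested, every aged stromal sample lay below every young one for 14% and above for 6.57%. Schwann cell markers summed to 27.0, 48.0 and 79.3 CPM in aged stroma and to 120.2 and 97.3 in young stroma, without overlap. The aged samples O1, O2 and O3 held 941, 2051 and 816 CPM of smooth muscle markers, and the young samples Y1 and Y3 held 303 and 599.9. For basal keratinocyte markers the aged samples held 20.5, 40.3 and 62.1 CPM against 13.98 and 14.6 in the young ones, and neither sum overlapped between the ages. All 5 adipocyte markers had a log2 fold change below 0 (median -1.20), 2 of them with an unadjusted p under 0.05, and their sum was 60.7 to 117.6 CPM in aged stroma and 55.1 and 291.6 in young stroma. Sums for skeletal muscle fibre, fibroblast, endothelium, muscle satellite cell, leukocyte and superficial keratinocyte also overlapped between the ages. The part of these markers in the differences of Igf2, Meg3 and Peg3 was not tested.

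Aged and young epithelium were compared over 5 and 4 samples, and the fit took into account which of the mice had no stroma. Of the 15859 genes tested 2 were called (0.0126%), neither of them a member. At an unadjusted p under 0.05 there were 509 genes, 1 of them a member. The 7 members tested were H19, Grb10, Plagl1, Peg3, Cdkn1c, Meg3 and Rian, and for all 7 the groups overlapped, with all aged samples below all young ones for 0.391% of genes and above for 0.883%.

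H19 was the member with the unadjusted p under 0.05. Aged samples held 35.6 CPM in O1, 42.6 in O2, 70.1 in O3, 12.4 in OF5 and 15.3 in OM8, and young samples 76.2 in Y1, 67.5 in Y3, 104.6 in YF5 and 62.3 in YM4. O3 alone reached the young range. The log2 fold change of aged over young was -1.35 (SE 0.48, edgeR unadjusted p = 0.0285, adjusted p = 1.0). In the 5 mice with both layers the log2 fold change was -0.55 (SE 0.30, edgeR adjusted p = 1.0), and in the 4 mice with epithelium only it was -2.54 (SE 0.29, edgeR adjusted p = 0.00116), where H19 was the 1 gene called of 9750. The difference between these sets of mice was not tested. Skeletal muscle fibre markers in these 4 mice summed to 8.96 CPM in OF5, 55.6 in OM8, 1168 in YF5 and 46.0 in YM4. OF5 was lowest and YF5 highest for both the muscle sum and H19. OM8 was above YM4 for the muscle sum but below it for H19 (15.3 against 62.3 CPM). Fibroblast markers summed to 223.9 to 369 CPM over all aged and 361 to 518 over all young epithelial samples, and all 5 had a log2 fold change below 0 by age (median -0.45), 3 of them with an unadjusted p under 0.05. The part of muscle and fibroblast RNA in the age difference of H19 was not tested.

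The other members in epithelium gave small differences. Plagl1 was at 64.6 to 76.8 CPM in aged and 48.8 to 71.7 in young epithelium, a log2 fold change of 0.23 (SE 0.13). Grb10 gave -0.48 (SE 0.25), Peg3 -0.55 (SE 0.36), Meg3 -0.72 (SE 0.49), Cdkn1c -0.22 (SE 0.69) and Rian -0.16 (SE 0.57). All 6 had an edgeR adjusted p of 1.0. The Meg3 values were spread widely within both ages, from 0.290 to 3.54 CPM in aged and from 0.992 to 4.85 in young epithelium.

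Whether the age difference differed between the layers was tested where both layers of a mouse were sequenced (5 mice, 10 samples). Of 22771 genes 0% were called by edgeR, 979 had an unadjusted p under 0.05, and DESeq2 called 62, none of them a member. Igf2 had the largest interaction among the 9 members tested, a log2 difference of -3.03 (SE 1.32, edgeR unadjusted p = 0.0423, adjusted p = 1.0). In these mice Igf2 was at 0.378, 0.242 and 0.373 CPM in aged and 0.142 and 0.425 in young epithelium, values that overlap, beside the stromal values above. For H19 the interaction was -1.1e-05, and with each mouse left out it ran from -0.36 to 0.37. No standard error is given for it, since one computed from the fold change carries little meaning at so small a value. The other 7 members ranged from -0.66 (SE 1.35) for Rian to 0.83 (SE 2.22) for Mirg.

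Among the 54 other imprinted genes none was called by age in either layer by edgeR. In stroma 43 were tested with a median log2 fold change of 0.17, with 29 above and 14 below 0, and 2 had an unadjusted p under 0.05. In epithelium 30 were tested with a median of 0.07 and 0 had an unadjusted p under 0.05. Medians over all genes tested were -0.01 and -0.00333. Of the 13 partners and relatives, 12 were tested in stroma and 11 in epithelium, and none was called.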

How the data were processed

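The 14 bulk RNA-Seq samples of peeled esophageal epithelium and stroma were grouped by layer, age and mouse from their labels, and none was left out. For each sample, the authors deposited whole-number counts of reads per gene, not normalized. They had aligned reads to GRCm38.p6 and counted them with Rsubread and featureCounts. Strand and multiple-match settings and the annotation release are not given in the sources used here.

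For tests, edgeR 4.0.16 was run under R 4.3.3 (TMM, filterByExpr with a minimum count of 10, robust quasi-likelihood fit), and p-values were adjusted over all genes tested. Standard errors were the size of the log2 fold change divided by the square root of F. Layers were compared over 14 samples without covariate (the study names DESeq2 and no design), age in epithelium with code form (stroma sequenced or not) as covariate, age in stroma without covariate, and the interaction in the 5 mice with both layers. Levels are CPM after TMM adjustment of library sizes in the 14-sample fit. Gene positions and exon lengths came from GENCODE M21, in which 53292 of 55291 symbols matched, and sequences from RefSeq (GRCm38.p6).

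The same mouse code in both layers marks the same animal and pairs 5 mice. Deviations from the group means correlated between the layers of a mouse with r from 0.0422 to 0.141, so the block is given where it changes a call. The value of 0.141 is shared by Y1 and Y3 by construction, since the deviations of 2 samples from their mean mirror each other. The means of these groups rest on few mice, so r is a rough guide. Alternatives were DESeq2 1.42.0, no filter, a stricter filter, upper quartile normalization, mitochondrial and ribosomal RNA rows left out, other covariates and subsets, mouse as a block (limma 3.58.1 for the interaction), and each mouse left out. The fits were tested on simulated counts. The p-values set a difference against the spread between these samples. The main test of the layers treats the 2 samples of a mouse as independent.

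The members and gene lists were chosen with earlier results of these data known. Named were the 10 members in every comparison and, from the lists of other imprinted genes and of relatives, per direction, the 6 called genes whose log2 fold change was largest, or fewer, given at least 10 counts in every sample of the higher layer. Genes named outside this rule share a domain with a member or were chosen after their values were seen.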

Additional observations from a re-analysis of the deposited data

Results flagged for a closer look

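Each member was examined for a sample far from the rest of its group in aged and young epithelium, on the scale log2(CPM + 0.5), in 19 pairs of gene and group. By chance about 1 in 20 groups would stand out, a rate that does not hold where samples are tied at 0 counts. Where all other samples of a group are at 0 counts, the remaining sample is flagged by construction. Dlk1 in O1 epithelium stood apart at -0.698, with 4 counts (0.116 CPM) beside 0 counts in the other aged samples, which lie at -1.0 on this scale. A value of 4 counts is at the limit of what these libraries detect.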

How the results depend on the processing

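Between the layers, 136 of 138 alternative values of the 8 members tested kept both direction and side of the threshold. The exceptions were those of Igf2 without Y1 (1.66) and with mouse as a replicate block (1.75), and the block changed no other call of a member. The log2 fold change ranged over the alternatives from 4.26 to 4.82 for H19, from 2.48 to 3.06 for Grb10, from 2.87 to 3.32 for Peg3 and from -3.50 to -2.98 for Plagl1. With at least 10 counts in every sample, only H19 and Plagl1 of the members could be tested, fewer genes were called (4316), and calls fell to 1 member higher in stroma, 12 and 3 other imprinted genes, and 2 and 2 relatives in the 2 directions. Without a filter Mirg was also called higher in stroma (log2 fold change 2.94). The median log2 fold change of all genes moved from 0.05 to 0.15 with upper quartile normalization, to 0.56 without a filter and to -0.14 with the block.

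By age in epithelium, the number of genes called was 28 by DESeq2, 36 without a filter, 0 without the covariate, 4 in the mice with both layers, 1 in the mice with epithelium only (H19, the 1 member called) and 0 to 3 with each mouse left out, 0 without Y1. Igf2bp2 was the 1 relative called without a filter, and 0 to 1 relatives were called with each mouse left out. Grb10 turned to 0.19 in the mice with epithelium only. With each mouse left out, Cdkn1c ran from -0.95 to 0.98 and Rian from -0.32 to 0.47.

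By age in stroma, 2 genes were called by DESeq2, 26 without a filter and 0 to 13 with each mouse left out, 13 without Y1 and 7 without Y3, fits in which the lone young sample is assumed to vary like the aged ones. Grb10 had a log2 fold change of -0.0022 without a filter, -0.041 with the stricter filter and -0.11 with upper quartile normalization. With each mouse left out, Grb10 ran from -0.66 to 0.37, Plagl1 from -0.62 to 0.29, Cdkn1c from -1.24 to 0.24 and Mirg from -3.88 to 0.26.

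In the interaction, 62 genes were called by DESeq2 and 98 without a filter. Without a filter Plagl1 was at 0.072, Peg3 at 0.16, Cdkn1c at 0.13 and H19 at 0.20. Without mitochondrial and ribosomal RNA rows Peg3 was at 0.029, Cdkn1c at 0.0015 and H19 at 0.11. H19 was at 0.054 by DESeq2 and, with the replicate block, at 0.050, and Mirg was at -1.06 with the block. With each mouse left out, Grb10 ran from -0.084 to 1.38, Plagl1 from -0.66 to 0.35, Peg3 from -0.65 to 0.71, Cdkn1c from -1.47 to 0.62, H19 from -0.36 to 0.37, Meg3 from -0.89 to 0.46, Rian from -1.32 to 0.18 and Mirg from -2.66 to 2.10. For changes whose cause the construction of the alternative does not show, the cause was not tested. Depth limits the low members (Igf2, Dlk1, Cdkn1c, Rian and Mirg), since 3 counts in the mice with epithelium only correspond to 0.707 to 1.25 CPM.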

Other observations

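Among the other imprinted genes, Nnat and Slc38a4 were the pair with an unadjusted p under 0.05 by age in stroma, and they are named here after their values were seen. Nnat, a small membrane protein of nerve and endocrine cells, had a mean of 7.82 CPM in aged stroma (SD 3.35, n = 3) and 1.23 in young samples (SD 0.936, n = 2), and its log2 fold change was 2.64 (edgeR adjusted p = 1.0). Slc38a4 had a mean of 6.76 CPM in aged (SD 1.04, n = 3) and 15.0 in young samples (SD 4.49, n = 2), so that its log2 fold change was -1.16 (edgeR adjusted p = 1.0). For both genes the aged and the young samples did not overlap. Igf2bp2, a binder of Igf2 mRNA, had a log2 fold change of -2.47 (SE 0.51) by age in epithelium, with an edgeR unadjusted p of 1.14e-04 and an adjusted p of 0.169, and was likewise named after its value was seen. In the comparison of the layers Dlk2, a relative of Dlk1, was higher in epithelium (mean 4.73 CPM against 0.0310 in stroma), where 3 of the 5 stromal samples had 0 counts.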
